A study of Mus musculus with 8 samples.

Results

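The insulin-like growth factor (IGF) family was examined in activated mouse microglial cultures through 9 genes, which were the 2 ligand genes Igf1 and Igf2, the receptor gene Igf1r and the 6 binding-protein genes Igfbp2 to Igfbp7. They were chosen by gene symbol, and all 9 were found among the 31406 genes of the deposited count table. The table holds transcript counts of 8 RNA-seq libraries, with total counts from 32630602 to 45878639. Of the 31406 genes, 26155 to 26809 were detected per library.

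All libraries came from primary cultures of wild-type striatal cells, prepared from C57/BL6 pups aged 2 to 4 days, and the methods name 4 pregnant mice for the whole study without saying which culture came from which litter. Cells were cultured for 15 days and then exposed for 48 h to 0.01% (v/v) lipopolysaccharide (LPS, a bacterial cell wall component) and 0.002% (v/v) interferon-γ, so that the activating agents were shared by both groups. The reagent list names human interferon-γ. In the A2A antagonist group (n = 4), 200 nM SCH 58261, an antagonist of the adenosine A2A receptor, was added at 24, 32 and 40 h of activation. In the dual group (n = 4), the same dose of SCH 58261 was combined with 200 nM 2-Cl-IB-MECA, an agonist of the adenosine A3 receptor, at the same times. Groups follow the sample titles, which the names of the count columns match. The treatment field of the labels is at odds with the titles. It lists 2-Cl-IB-MECA where the title has SCH 58261 alone and leaves it out where the title has both. The direction of every difference therefore rests on the titles. For ligand-treated cells the methods give fewer replicates than 4, whereas a figure legend of the study gives 4, the number of titles per group. Nothing in the labels says that the libraries were separate cultures, and p-values therefore measure the spread between these libraries, which may be technical.

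IGF1 and IGF2 are small secreted hormones that act mainly through the type 1 IGF receptor, a tyrosine kinase that signals through insulin receptor substrates, the PI3K and AKT kinases and the MAP kinase cascade. Nearly all secreted IGF is held by high-affinity binding proteins, which prolong its life, keep it from the receptor or deliver it to the cell surface, and which are cleaved by proteases such as PAPP-A. IGFBP7 is a related secreted protein that binds IGFs only weakly. In the brain, IGF1 supports the growth and survival of neurons and oligodendrocytes, and microglia are a known source of it.

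The cultures were labelled as microglia, and the methods report a high purity of microglial cells by anti-CD11b labelling. In the RNA the microglial markers were all detected, but so were those of other cells. Per 1000 bases of gene length, the microglial receptor genes Csf1r and Cx3cr1 had mean levels of 44.6 and 20.6 CPM (counts per 1e6 counts, on library sizes scaled by TMM factors) in the A2A antagonist group. The homeostatic microglial genes P2ry12 and Tmem119 were at 0.654 and 3.2 CPM per 1000 bases. By contrast, the astrocyte genes Gfap, Aqp4 and Slc1a3 were at 389, 258 and 218 CPM per 1000 bases, and the collagen gene Col1a1, expressed by fibroblasts, at 56.6. The RNA therefore cannot be assigned to microglia alone, and in such bulk libraries fewer cells of a type and less RNA per cell cannot be told apart.

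All 9 genes passed the low-count filter, and none of them was called at an adjusted p under 0.05. Over all genes the same test (edgeR's quasi-likelihood test with Benjamini-Hochberg adjustment) called 39 of 18756 genes, 9 higher and 30 lower in the dual group, a background of 0.208%. DESeq2 called 2 of the family, described further on, against its background of 3.87% of the 9665 genes to which it gave an adjusted p. At an unadjusted edgeR p under 0.05, 2 of the 9 genes passed, the lower Igfbp3 and the higher Igfbp5, against a background of 12.8% of the genes tested. The fitted difference was positive for 6 of the genes and negative for 3, with a median log2 fold change of 0.0034, beside 0.00376 over all genes tested. The median size of the difference regardless of sign was 0.127 on the log2 scale, beside 0.0723 over all genes tested. For 8 of the 9 genes the 95% interval lay within a 1.5-fold change in either direction (log2 0.585), the exception being Igf2.

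The promoters of the genes are shown for those with the smallest p-values (Igfbp3 and Igfbp5) and for those whose levels varied together across the libraries (Igfbp2 and Igfbp7). All 9 genes had entries among the RefSeq promoters of GRCm38.p6, with 13 annotated starts in all. Each sequence below gives the 250 bases before an annotated start, 5′ to 3′ on the strand of the gene, in lower case, with GC boxes (GGGCGG, or CCGCCC on the other strand) in capitals. The windows are chr11:7213924-7214173 on the minus strand for Igfbp3, chr1:72874866-72875115 on the minus strand for Igfbp5, chr1:72824230-72824479 on the plus strand for Igfbp2 and chr5:77408046-77408295 on the minus strand for Igfbp7.
Igfbp3: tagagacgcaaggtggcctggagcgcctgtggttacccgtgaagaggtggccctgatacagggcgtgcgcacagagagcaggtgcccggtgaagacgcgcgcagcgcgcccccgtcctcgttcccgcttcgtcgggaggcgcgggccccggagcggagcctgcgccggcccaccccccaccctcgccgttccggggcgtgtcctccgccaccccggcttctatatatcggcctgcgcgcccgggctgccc
Igfbp5: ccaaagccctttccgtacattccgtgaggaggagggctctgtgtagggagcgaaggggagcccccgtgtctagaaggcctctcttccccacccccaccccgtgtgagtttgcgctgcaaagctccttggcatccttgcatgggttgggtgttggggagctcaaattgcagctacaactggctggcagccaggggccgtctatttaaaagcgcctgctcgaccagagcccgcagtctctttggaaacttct
Igfbp2: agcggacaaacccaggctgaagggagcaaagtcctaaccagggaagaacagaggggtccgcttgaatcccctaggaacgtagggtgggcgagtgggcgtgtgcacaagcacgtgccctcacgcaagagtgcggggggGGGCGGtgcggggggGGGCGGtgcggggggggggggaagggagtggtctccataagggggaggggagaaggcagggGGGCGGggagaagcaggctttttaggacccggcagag
Igfbp7: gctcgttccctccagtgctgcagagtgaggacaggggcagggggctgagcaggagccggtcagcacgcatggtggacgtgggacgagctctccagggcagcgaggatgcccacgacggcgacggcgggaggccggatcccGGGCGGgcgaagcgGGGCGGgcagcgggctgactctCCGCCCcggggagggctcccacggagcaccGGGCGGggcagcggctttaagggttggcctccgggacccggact
The Igfbp3 and Igfbp5 windows hold neither a GC box nor the letters TATAAA (or TTTATA), the TATA box motif searched. The Igfbp2 window holds 3 GC boxes and the Igfbp7 window 4, which do not overlap each other. Igfbp2 has another annotated start, whose 250 bases hold neither motif. Among the 9 genes, 4 (Igf2, Igf1r, Igfbp2 and Igfbp7) had a GC box in at least 1 of their windows. The letters searched for a TATA box were found in 2, as TATAAA in Igfbp4 and as TTTATA, the letters on the other strand, in Igfbp6. Only these exact letters were counted, at any place in the window, so that tatata in the Igfbp3 window and tatttaaa in the Igfbp5 window were not. A GC box was present in 32.7% and the TATA box letters in 12.4% of the 32851 RefSeq promoter windows of the same length. These shares are per window, whereas a gene with several starts, as Igf2 or Igfbp2, was counted if any window matched. These matches describe the letters only, and binding at them was not measured.

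The levels per gene length spanned about 3 orders of magnitude and fell into the same order in both groups. The secreted binding proteins led. Igfbp7 averaged 343 and 335 CPM per 1000 bases in the A2A antagonist and dual groups, Igfbp2 330 and 302, Igfbp5 235 and 261, and Igfbp3 178 and 158. Igfbp4 averaged 40.2 and 40.8 CPM per 1000 bases, and Igfbp6 21.9 in both groups. The receptor gene Igf1r followed with 7.65 and 7.67 CPM per 1000 bases. The ligand genes were lowest, Igf1 with 0.692 and 0.803 and Igf2 with 0.325 and 0.428 CPM per 1000 bases. The ranges of neighbours in this order overlapped for Igfbp7 and Igfbp2 in both groups and for Igfbp2 and Igfbp5 in the dual group. All other neighbours were separated in every library of a group, although Igf1 and Igf2 only narrowly in the dual group, where the lowest Igf1 value was 0.636 and the highest Igf2 value 0.632 CPM per 1000 bases. Without division by length Igfbp5 ranked above Igfbp2, Igfbp3 and Igfbp7, in that order, since Igfbp5 has the greater gene length (6006 bases, beside 1847, 3130 and 1209). The receptor gene Igf1r (128.5 and 128.8 CPM in the A2A antagonist and dual groups) then ranked above Igfbp6 (24.4 CPM in both). These lengths count the bases of all exons of a gene, which a single transcript may not hold, and the levels per length depend on them. For Igf2, 3694 of the 5723 bases are shared with other genes, so its level and its place below Igf1 also depend on how shared reads were counted.

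**Figure D1:**
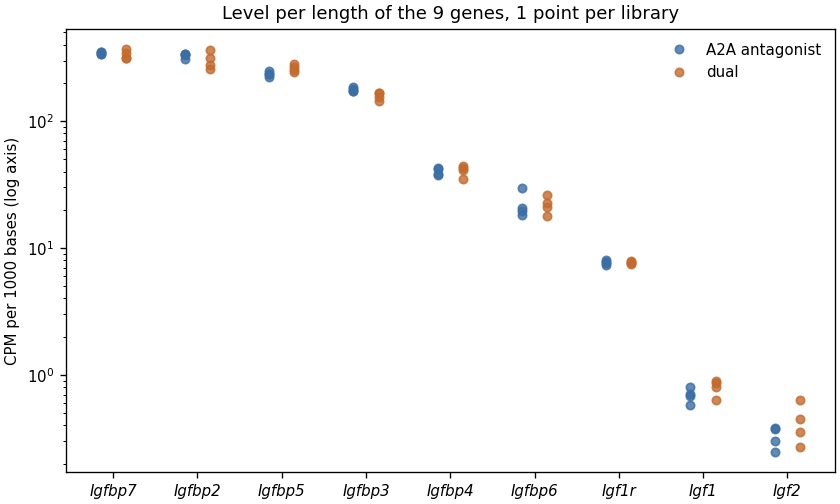
Level of each of the 9 genes in CPM per 1000 bases of gene length (log axis), ordered by the mean of the A2A antagonist group, with 1 point per library. Igfbp7, Igfbp2, Igfbp5 and Igfbp3 lie between 145 and 369, whereas Igf1 and Igf2 lie below 1.

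Igf1 (ENSMUSG00000020053, chr10:87858265-87937042, plus strand, GRCm38), the main growth-promoting ligand, was a low-count gene with 221 to 362 counts per library. It measured 5.73, 7.96, 6.70 and 7.02 CPM in replicates 1 to 4 of the A2A antagonist group and 8.92, 8.59, 6.30 and 7.99 CPM in the dual group. Dual replicates 1, 2 and 4 lay above every A2A antagonist library, replicate 4 only just, and dual replicate 3 lay among them, so the groups overlapped. The means were 6.85 ± 0.92 and 7.95 ± 1.17 CPM (SD, n = 4), and the log2 fold change was 0.20 (SE 0.11, 95% interval -0.034 to 0.441), with an adjusted p of 0.476 by edgeR's quasi-likelihood test.

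Igf2 (ENSMUSG00000048583, chr7:142650766-142666816, minus strand), the ligand best known from fetal growth and expressed from the paternal allele in most tissues, had 64 to 118 counts per library. It measured 1.71, 2.13, 2.18 and 1.41 CPM in the A2A antagonist group and 3.62, 2.05, 2.57 and 1.56 CPM in the dual group. Dual replicate 1 stood highest, while dual replicate 4 lay among the lowest libraries of either group. The log2 fold change was 0.38 (SE 0.22, 95% interval -0.074 to 0.836) with an adjusted p of 0.487 by edgeR's quasi-likelihood test, and it was 0.15 without dual replicate 1. Of the 5723 exonic bases of Igf2, 3694 are shared with the antisense gene Igf2os or with Gm49394 on the same strand, whose own levels did not exceed 0.991 CPM, and reads in these bases cannot be told apart. Whether such reads were counted was not stated, and if they were left out the level of Igf2 and the ligand sum given below would be too low. H19, the imprinted noncoding RNA beside Igf2, averaged 15.9 and 18.8 CPM, with a log2 fold change of 0.23 and an adjusted p of 0.431 by the same test.

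Igf1r (ENSMUSG00000005533, chr7:67952827-68233668, plus strand), which encodes the receptor for both ligands, varied least of the 9 genes over the 8 libraries. Its level was 134.9, 122.8, 129.4 and 127.0 CPM in the A2A antagonist group and 131.5, 130.6, 128.0 and 125.3 CPM in the dual group. All dual values lay within the range of the A2A antagonist values. The log2 fold change was 0.0034 (SE 0.036, 95% interval -0.072 to 0.079), with an adjusted p of 0.983 by edgeR's quasi-likelihood test.

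**Figure D2:**
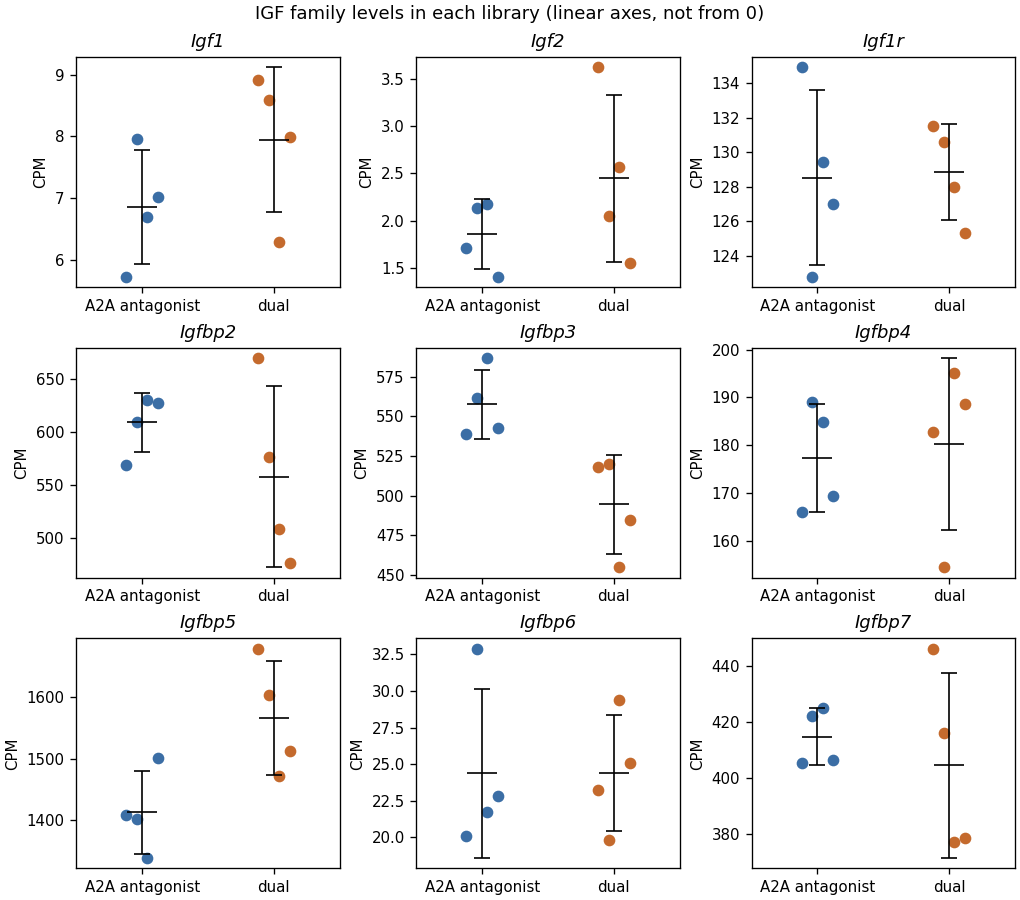
CPM of each gene in every library (points), with the mean and SD of each group of 4 (black bars), on linear axes that do not start at 0. Igfbp3 is the gene whose groups do not overlap, with A2A antagonist libraries at 538.9 CPM or above and dual libraries at 519.9 CPM or below.

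Igfbp3 (ENSMUSG00000020427, chr11:7206086-7213923, minus strand) encodes the main IGF carrier of the blood, which can also restrain cell growth locally. It measured 538.9, 561.8, 586.8 and 542.9 CPM in the A2A antagonist group and 518.3, 519.9, 454.8 and 484.7 CPM in the dual group. Every dual library lay below every A2A antagonist library, and no other gene of the 9 had groups that did not overlap, a pattern found in 7.42% of all genes tested. The means were 557.6 ± 21.9 and 494.4 ± 31.0 CPM (SD, n = 4), which made the log2 fold change -0.17 (SE 0.04, 95% interval -0.261 to -0.086). The adjusted p was 0.0789 by edgeR's quasi-likelihood test with Benjamini-Hochberg adjustment, short of the threshold, and the p-value ranked 131st of the 18756 genes tested. DESeq2's Wald test gave an adjusted p of 0.00722 and called Igfbp3, within a background of 3.87% of the 9665 genes to which it gave one. Without the low-count filter the edgeR test also called it (adjusted p 0.00151, background 1.17%), and over all alternatives the adjusted p ranged from 0.00151 to 0.212.

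Igfbp5 (ENSMUSG00000026185, chr1:72857932-72874884, minus strand), which encodes the most conserved binding protein, one that also attaches to extracellular matrix, had the most counts of the 9 genes. It measured 1408, 1402, 1338 and 1501 CPM in the A2A antagonist group and 1679, 1604, 1472 and 1512 CPM in the dual group. The groups overlapped only through A2A antagonist replicate 4, which lay above dual replicate 3. The means were 1412 ± 66.9 and 1567 ± 93.2 CPM (SD, n = 4), which made the log2 fold change 0.15 (SE 0.04, 95% interval 0.062 to 0.237). The adjusted p was 0.13 by edgeR's quasi-likelihood test with Benjamini-Hochberg adjustment. DESeq2's Wald test (adjusted p 0.0285) and the edgeR test without the low-count filter (adjusted p 0.00838) called it, and over all alternatives the adjusted p ranged from 0.00838 to 0.325.

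Igfbp3 and Igfbp5 differed between the groups in opposite directions, so their ratio within a library, which needs no scaling between libraries, was also computed. The Igfbp5 count was 2.61, 2.50, 2.28 and 2.76 times the Igfbp3 count in the A2A antagonist libraries and 3.24, 3.09, 3.24 and 3.12 times in the dual libraries. The mean ratio was 2.54 ± 0.204 and 3.17 ± 0.0796 (SD, n = 4), and the groups did not overlap. The pair was chosen after its values were seen, and the ratio was therefore not tested.

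Igfbp2 (ENSMUSG00000039323, chr1:72824503-72852474, plus strand) encodes a binding protein abundant in the developing brain and in astrocytes. It measured 569.2, 609.5, 630.2 and 626.9 CPM in the A2A antagonist group and 669.4, 576.9, 508.4 and 477.2 CPM in the dual group. The dual group held both the highest and the lowest values, and its spread (SD 85.2 CPM, beside 28.0) was the wider. The log2 fold change was -0.13 (SE 0.07, 95% interval -0.276 to 0.022), with an adjusted p of 0.481 by edgeR's quasi-likelihood test. It was -0.23 (adjusted p 0.0784 by the same test) without dual replicate 1 and -0.059 without dual replicate 4. Igfbp2 and Igfbp5 are neighbours on chromosome 1, transcribed towards each other with 5457 bases between their ends. Their fitted differences had opposite signs and their levels had a Pearson r of 0.0881 over the 8 libraries (Spearman rho 0, exact permutation p 0.837 and 1, adjusted 0.913 and 1 over the 36 pairs of the 9 genes, and r 0.295 without the 2 libraries farthest from the median of Igfbp2).

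Igfbp7 (ENSMUSG00000036256, chr5:77349240-77408041, minus strand), which encodes the weak IGF binder found in extracellular matrix and around vessels, measured 405.4, 422.0, 424.9 and 406.3 CPM in the A2A antagonist group and 446.2, 415.9, 377.1 and 378.5 CPM in the dual group. As for Igfbp2, dual replicate 1 was the highest of the 8 libraries and dual replicates 3 and 4 were the lowest. The log2 fold change was -0.04 (SE 0.05, 95% interval -0.131 to 0.058), with an adjusted p of 0.795 by edgeR's quasi-likelihood test. Of the 1209 exonic bases of Igfbp7, 85 are shared with Polr2b on the opposite strand, which reached 102 CPM, and the strand used in counting was not stated.

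Across the 8 libraries the levels of Igfbp2 and Igfbp7 had a Pearson r of 0.926 and a Spearman rho of 0.905 (two-sided exact permutation p 0.00114 and 0.00456, adjusted 0.0411 and 0.0821 over the 36 pairs of the 9 genes). Without the 2 libraries farthest from the median of Igfbp2, r was 0.757. The libraries of a group share their treatment, and no coefficient was computed within a group, which holds 4 libraries. No other pair reached an adjusted p under 0.05 by Pearson r, and no pair did by Spearman rho.

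Igfbp4 (ENSMUSG00000017493, chr11:99041244-99054392, plus strand) encodes an inhibitory binding protein that is the preferred substrate of PAPP-A. It measured 166.2, 189.0, 184.9 and 169.5 CPM in the A2A antagonist group and 182.8, 154.6, 195.2 and 188.7 CPM in the dual group. The dual libraries enclosed the range of the A2A antagonist libraries. The log2 fold change was 0.02 (SE 0.06, 95% interval -0.098 to 0.146), with an adjusted p of 0.91 by edgeR's quasi-likelihood test.

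Igfbp6 (ENSMUSG00000023046, chr15:102144362-102149511, plus strand), which encodes a binding protein with a preference for IGF2, was the least abundant of the binding proteins. It measured 20.1, 32.9, 21.7 and 22.8 CPM in the A2A antagonist group and 23.3, 19.8, 29.4 and 25.1 CPM in the dual group. A2A antagonist replicate 2 was the highest and dual replicate 2 the lowest of the 8 libraries. The log2 fold change was 0.0015 (SE 0.12, 95% interval -0.259 to 0.263), with an adjusted p of 0.997 by edgeR's quasi-likelihood test.

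**Figure D3:**
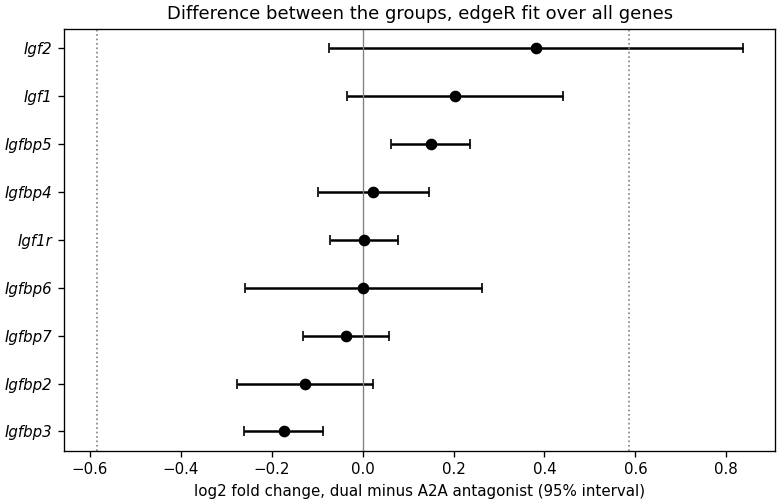
Log2 fold change of each gene, dual minus A2A antagonist, with its 95% interval from the edgeR fit over all genes. Dotted lines mark a 1.5-fold change. The intervals of Igfbp3 (-0.261 to -0.086) and Igfbp5 (0.062 to 0.237) exclude 0, and that of Igf2 is the one that passes a dotted line.

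The binding-protein transcripts were also viewed as a pool. Summed per gene length they reached 1150 ± 28.3 CPM per 1000 bases in the A2A antagonist group and 1120 ± 92.5 in the dual group (SD, n = 4), and the ranges overlapped. Igfbp7 made up 29.9% of the pool in both groups. Igfbp2 made up 28.7% ± 0.721 and 26.9% ± 1.89, Igfbp5 20.5% ± 1.11 and 23.4% ± 0.638, and Igfbp3 15.5% ± 0.461 and 14.2% ± 0.666. Igfbp4 and Igfbp6 together took the rest. These shares depend on the weighing by length, since by CPM alone Igfbp5 led with 44.2% and 48.6%, followed by Igfbp2 with 19.1% and 17.2%, Igfbp3 with 17.5% and 15.3%, and Igfbp7 with 13.0% and 12.5%. Per length, the Igfbp5 share did not overlap between the groups (19.14% to 21.58% against 22.56% to 24.13%), nor did the Igfbp3 share (14.98% to 16.1% against 13.36% to 14.84%). These shares restate the counts of Igfbp3 and Igfbp5 and were not tested. The pool stood far above the 2 ligands, whose summed level was 1.02 ± 0.129 and 1.23 ± 0.213 CPM per 1000 bases, with overlapping ranges. The ratio of the pool to the ligands was 990 to 1260 in the A2A antagonist libraries and 808 to 968 in the dual libraries, a description of transcripts with no test.

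**Figure D4:**
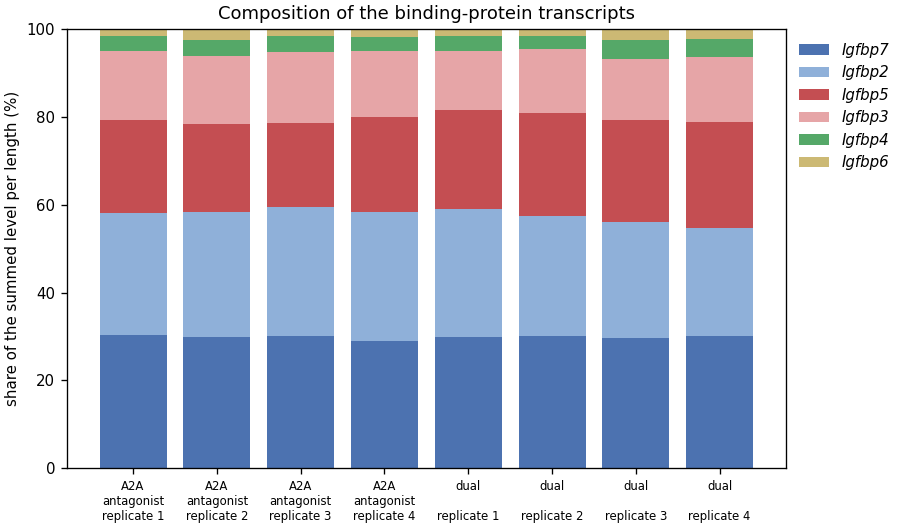
Share of each binding-protein gene in the summed level per gene length (%, bars from 0 to 100), with 1 bar per library. The Igfbp5 band is 19.14% to 21.58% in the A2A antagonist libraries and 22.56% to 24.13% in the dual libraries.

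Summed markers of cell types were set beside these levels. In dual replicate 1, which had the highest Igf1, Igf2, Igfbp2, Igfbp5 and Igfbp7 values, the summed level of the 8 fibroblast markers was also the highest of the 8 libraries (3256 CPM, beside 2567 to 3022 in the others). Over the groups this sum was 2567 to 2900 CPM in the A2A antagonist group and 2573 to 3256 CPM in the dual group. Of the 8 markers 7 were higher, 3 at an unadjusted p under 0.05 and none called. Dual replicate 3 had the next highest fibroblast sum, 3022 CPM. There Igf1, Igfbp2, Igfbp5 and Igfbp7 lay below their means over the 8 libraries (log2 deviations -0.218, -0.191, -0.014 and -0.117), and Igf2 above (0.315). The 10 microglial markers summed to 1058 to 1129 CPM and 1006 to 1071 CPM, with 6 of the 10 lower, 4 at an unadjusted p under 0.05 and 1 called, the complement gene C1qa (476.3 and 402.9 CPM on average, log2 fold change -0.24, adjusted p 0.024 by edgeR's quasi-likelihood test). The difference between the sums is about that of C1qa alone, and the markers did not share a direction. Besides C1qa, Aif1 (log2 fold change -0.21) and Fcrls (-0.33) were the lower ones with an unadjusted p under 0.05, and Csf1r (0.11) the higher one. The 10 astrocyte markers summed to 7119 to 7419 CPM and 7173 to 7650 CPM, with 4 at an unadjusted p under 0.05 and none called. The 8 mural markers summed to 160.4 to 176.4 CPM and 161.8 to 185.4 CPM. Of the mural markers 5 passed the low-count filter, 1 with an unadjusted p under 0.05 and none called. Acta2 (87.4 and 91.2 CPM on average) and Pdgfrb (78.3 and 79.0 CPM) made up most of the mural sum. The 8 oligodendrocyte markers summed to 623.2 to 658.8 CPM and 576.2 to 612.5 CPM, 7 of them lower, 1 at an unadjusted p under 0.05 and none called. Endothelial markers (6 of a list of 7, Cldn5 not being analysed here) summed to 51.32 to 65.08 CPM and the 6 neuronal markers to 119.6 to 135.1 CPM over all 8 libraries. None of these markers was at 0 in all libraries. Over all genes tested by edgeR, 12.8% had an unadjusted p under 0.05 and 0.208% were called, which is the background of the marker counts. The part of cell makeup in the differences of Igfbp3 and Igfbp5 was not tested.

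**Figure D5:**
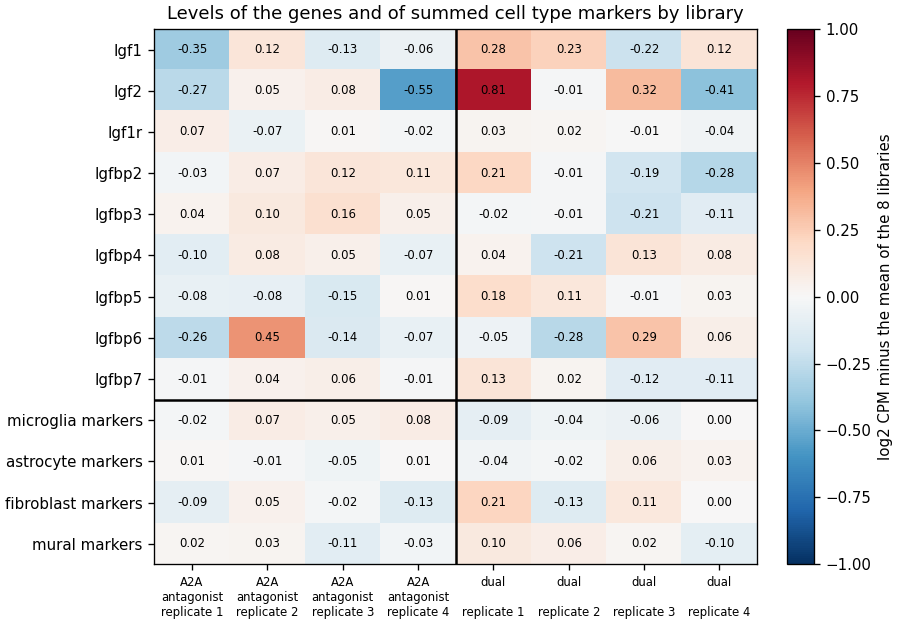
Deviation of each library from the mean of the 8 libraries, in log2 CPM, for the 9 genes (above the black line) and for summed markers of 4 cell types (below it). Red is higher and blue lower. The largest deviation is that of Igf2 in dual replicate 1 (0.81), and Igfbp3 is negative in all 4 dual libraries.

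For each gene the most similar expression pattern was sought among 12705 protein-coding genes, by the highest Pearson r of log2 CPM over the 8 libraries. The nearest gene was Cst7 (cystatin F, a microglial activation gene) for Igfbp3, with r 0.982 and Spearman rho 0.976, and Larp1b for Igfbp5, with r 0.989 and rho 1. For Igfbp2 it was the bradykinin receptor gene Bdkrb2 (r 0.97, rho 0.976), and for Igfbp7 Chmp1a (r 0.975, rho 0.881). Polm was nearest to Igf1 (r 0.965, rho 0.952), P3h4 to Igf2 (r 0.967, rho 0.952), Gemin7 to Igf1r (r 0.93, rho 0.929), Gja4 to Igfbp4 (r 0.952, rho 0.905) and Cdh1 to Igfbp6 (r 0.956, rho 0.857). With 8 libraries and so many genes searched, high values arise readily, and the runner-up genes reached r 0.923 to 0.971. These coefficients are descriptions and carry no p-value.

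Other genes of the pathway were taken from a list of 37, of which 36 were tested and Igfbp1 was not analysed here. None was called at an adjusted p under 0.05 by edgeR (background 0.208%). DESeq2 called 1, Akt1, within its background of 3.87% of the 9665 genes to which it gave an adjusted p. At an unadjusted p under 0.05, 7 were higher and 2 lower, 9 of 36 against the background of 12.8%, and the median log2 fold change was 0.05 beside 0.00376 over all genes tested.

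Among receptors, Igf2r, which clears IGF2 from the cell surface, averaged 137.4 and 145.3 CPM in the A2A antagonist and dual groups (log2 fold change 0.08, unadjusted p under 0.05). Insr, the insulin receptor gene, averaged 81.1 and 82.5 CPM (0.03). Per 1000 bases, Igf2r was at 14.8 and 15.6 CPM, above Igf1r (7.65 and 7.67) and Insr (5.9 and 6.0).

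Among proteases and their inhibitors, Pappa, which encodes PAPP-A, averaged 39.4 and 43.5 CPM (log2 fold change 0.14), and the protease gene Adamts1 83.2 and 91.7 CPM (0.14). Stc2, which encodes an inhibitor of PAPP-A, was low at 1.62 and 1.39 CPM (-0.21). The Pappa difference had an unadjusted p under 0.05, and so did that of Adamts1, whereas that of Stc2 did not.

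Of the adaptors, Irs1 and Irs2, the insulin receptor substrates, had log2 fold changes of 0.05 and -0.03 and unadjusted p-values above 0.05. Grb2, an adaptor of the MAP kinase cascade, was at 133.9 and 124.8 CPM (log2 fold change -0.10), and Sos1, its partner exchange factor, at 70.2 and 75.1 CPM (0.10). Downstream, the kinase gene Akt1 was at 215.6 and 199.7 CPM (-0.11) and had the smallest adjusted p of the list, 0.16 by edgeR's quasi-likelihood test, with 0.0411 by DESeq2's Wald test and 0.0411 to 0.403 over all alternatives. Gsk3b, a kinase inhibited by AKT, was at 146.7 and 157.5 CPM (0.10), and the ribosomal S6 kinase gene Rps6kb1 at 52.7 and 56.9 CPM (0.11). Grb2, Sos1, Akt1, Gsk3b and Rps6kb1 had unadjusted p-values under 0.05, and none passed the adjustment over all genes.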

How the data were processed

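RNA was sequenced from 8 libraries of mouse microglial cultures, 4 per group. According to the methods, the authors used HISAT2 for aligning read pairs to the mouse genome of Ensembl, and the submitters' processing notes name featureCounts 1.5.0-p3 and mm10. The deposited values are raw counts per gene, without normalization or pooling, and whether counting used strand was not stated. The gene lengths that the authors deposited beside the counts were used for levels per 1000 bases. Columns with the authors' fold changes and p-values, and 9 columns of control libraries that belong to no sample of this series, were not used.

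Genes passing filterByExpr (minimum count 10) were compared between the groups in edgeR 4.0.16 (R 4.3.3, TMM scaling, quasi-likelihood F test, no covariate). P-values are two-sided, adjusted by the Benjamini-Hochberg procedure over all 18756 genes tested, and called under 0.05. Standard errors were derived from the F statistics. The fit was tested on simulated data. Correlations used log2 CPM with a prior count of 2. DESeq2 1.42.0, RLE scaling, no filter, a replicate block and leaving out each library were alternatives. Same-numbered libraries of the groups did not deviate together (r -0.0529 to 0.0408).

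Named genes are all 9 family genes, 7 set genes of the pathway list and those of it with an unadjusted p under 0.05, the most similar gene of each, and cell type markers, with H19, Polr2b, Igf2os and Gm49394 added as neighbours or overlapping genes. The values of 1 gene of the pathway list are not reported here. The genes, lists and tests were chosen with earlier results of these data known. Coordinates are those of the deposited table and were the same in GENCODE M21 (GRCm38) for all 9 genes.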

Additional observations from a re-analysis of the deposited data

Results flagged for a closer look

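Among the 32 sets of 4 libraries examined for a sample far from the others (the 9 genes, marker sums of 7 cell types, each in both groups), 1 stood out, which is about what chance gives at 1 in 20. The summed level of the 6 neuronal markers in the dual group was 135.1 CPM in replicate 4, beside 124.1 to 125.1 CPM in the other 3 libraries. In the A2A antagonist group it was 119.6 to 129.2 CPM.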

How the results depend on the processing

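Under the alternatives run, Igfbp3 and Igfbp5 were the family genes that passed the threshold in any, DESeq2 gave Igf1 and Igf2 no adjusted p, and Igf1r, Igfbp4 and Igfbp6 changed sign around 0. The count of family genes called, 0 in the reported test, was 2 (Igfbp3 and Igfbp5) with DESeq2 and 2 without the low-count filter. That of pathway genes was 1 (Akt1) with DESeq2. Over all genes, 39 were called with either scaling, 374 with DESeq2, 366 without the filter and 0 to 172 when a library was left out, with 172 without A2A antagonist replicate 1, 5 and 6 without its replicates 2 and 3, and 0 without its replicate 4 or without dual replicate 3. The replicate block gave 17 calls over all genes and none in the family, with a log2 fold change of -0.17 for Igfbp3 (adjusted p 0.159) and 0.15 for Igfbp5 (adjusted p 0.176) by edgeR's quasi-likelihood test. The replicate numbers did not pair the libraries.

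Without the low-count filter the log2 fold change was -0.0021 for Igf1r and -0.0042 for Igfbp6. With 1 library left out it ran from -0.018 to 0.026 for Igf1r, from -0.02 to 0.09 for Igfbp4 and from -0.11 to 0.18 for Igfbp6. It ran from -0.2 to -0.14 for Igfbp3 and from 0.11 to 0.18 for Igfbp5. It ran from 0.13 to 0.3 for Igf1, from -0.23 to -0.059 for Igfbp2 and from -0.087 to -0.0064 for Igfbp7. Igf2, with 64 counts in its lowest library, had the widest range, 0.15 to 0.55. The causes of these shifts were not tested.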
